A study of Mus musculus with 4 samples.

Results

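The proteins of the cytosolic ribosome were followed through 4 mouse libraries of poly(A) RNA, 2 from untreated explants and 2 from explants given the protonophore CCCP. The genes were chosen by name: a row was taken where its symbol was Rpl or Rps with a number and at most a short suffix, Rplp0 to Rplp2, or Rpsa. Rows named as pseudogenes (-ps) and the Rps6k kinases were left out. The rule found 89 of the 49997 rows, 53 of the large and 36 of the small subunit, and 85 of them passed the filter on low counts.

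The tissue was the aorta-gonad-mesonephros region (AGM) of C57BL/6J embryos, where the first blood stem cells of the embryo arise. Explants stayed in culture for 48 hours on a membrane at the boundary of medium and gas, in MyeloCult with hydrocortisone, either untreated (2 libraries) or with 5 µM CCCP (2 libraries), a compound that carries protons across the inner mitochondrial membrane and so dissipates its potential. Per the labels, no group carries an allele or transgene. The labels give E10.5 embryos in the design and both E10.5 and E11.5 in the growth protocol. They also name c-kit+ stem cells as the material, whereas the RNA was extracted from explants according to the protocol. The count column of untreated replicate 1 is headed with a name 1 letter off its label, and its identity follows the record that ties each file to a sample. The labels do not say how many embryos made up a library, so the p-values measure the spread between these libraries, which may be technical.

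Cytosolic ribosomes are built in the nucleolus from ribosomal RNAs and about equal parts of each ribosomal protein, and they translate every mRNA of nuclear origin. Most messages of this family begin with a run of pyrimidines, the 5′ terminal oligopyrimidine (TOP) motif, through which the kinase complex mTORC1 and the RNA-binding protein Larp1 set their translation and stability together. Blood stem cells are known for low and tightly held protein synthesis, and defects of ribosomal proteins cause anaemias in humans and mice.

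Total counts were 37360968 to 48827826 per library, and in each group replicate 1 was the deeper. Haemoglobin genes took between 0.271% and 0.477% of counts and genes of the mitochondrial genome between 2.05% and 2.35%. Blood stem and progenitor markers (8 of 8 listed) summed to 159 and 166 CPM without CCCP and to 124 and 138 CPM with it, where CPM is the count scaled to library size by TMM. Endothelial markers (6 of 6) summed to 429 and 549 CPM untreated and 445 and 422 CPM with CCCP, so markers of the labelled tissue were present. Mesenchymal markers (5 of 5) summed to 3805 and 2304 CPM untreated and 3205 and 2628 CPM with CCCP. Hepatic markers (8 of 8) summed to 1518 and 875 CPM untreated and to 3.30 and 68.3 CPM with CCCP, and no marker of any of the 8 cell types was at 0 in all libraries.

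Ribosomal protein rows took a larger share of the counts in CCCP than in untreated libraries of the same replicate number, and a larger share in replicate 2 than in replicate 1 of each group. The share was 4.09% in untreated replicate 1, 5.86% in untreated replicate 2, 5.45% in CCCP replicate 1 and 7.09% in CCCP replicate 2. The groups overlap: untreated replicate 2 lies above CCCP replicate 1. The exact 95% Clopper-Pearson interval of the last ran from 7.09% to 7.10%, those of the other 3 were as narrow, and all cover counting error only. The means were 4.98% ± 1.25 (SD, n = 2) untreated and 6.27% ± 1.16 (SD, n = 2) with CCCP, a difference of 1.29 percentage points (two-sided exact permutation test, p = 0.667; the smallest p that 2 against 2 allows is 0.333). The difference was 0.411 points without untreated replicate 1, 0.471 without CCCP replicate 2, 2.12 without CCCP replicate 1 and 2.18 without untreated replicate 2.

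**Figure D1:**
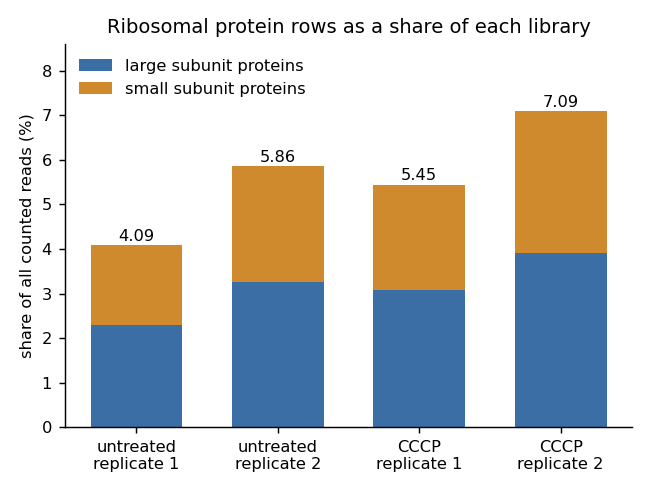
Share of all counted reads (%, vertical axis) that fell on the 53 large subunit (blue) and 36 small subunit (orange) rows in each of the 4 libraries, with the sum printed above each bar. The sum is lowest in untreated replicate 1 (4.09%) and highest in CCCP replicate 2 (7.09%), with untreated replicate 2 above CCCP replicate 1.

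The share in CCCP was 1.33 times that of the untreated library among replicates 1 and 1.21 times among replicates 2. Between replicate 2 and replicate 1 the ratio was 1.43 in the untreated group and 1.30 in the CCCP group. The steps between replicate numbers were thus mostly larger than those between treatments, though 1.30 lay just below 1.33. The labels do not say what a replicate number marks. The subunits kept close to the same proportion, since large subunit counts were 1.27, 1.25, 1.30 and 1.23 times small subunit counts in untreated replicates 1 and 2 and CCCP replicates 1 and 2. Erythroid markers (11 of 11; summed 2670 and 3293 CPM untreated, 3025 and 5051 CPM with CCCP) put the 4 libraries in the same order as the ribosomal protein share. Their part in the result was not tested, and in bulk RNA more cells of a type and more RNA per cell cannot be told apart.

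Single genes followed the same order of libraries. The median CPM over the 85 tested genes was 457 and 630 in untreated replicates 1 and 2 and 619 and 821 in CCCP replicates 1 and 2. Untreated replicate 1 was the lowest library for 82 of the 85 genes, against 31.7% of all tested genes. CCCP replicate 2 was the highest for 79, against 26.3% of all tested genes. The full order untreated 1, CCCP 1, untreated 2, CCCP 2 from low to high held for 54 of 85 (63.5%), against 7.35% of all 19837 tested genes, and another 23 had untreated 2 below CCCP 1 with the same ends. The 8 remaining genes were Rpl17, Rpl21, Rpl22l1, Rpl32l, Rps2, Rps27a, Rps3a2 and Rps3a3.

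**Figure D2:**
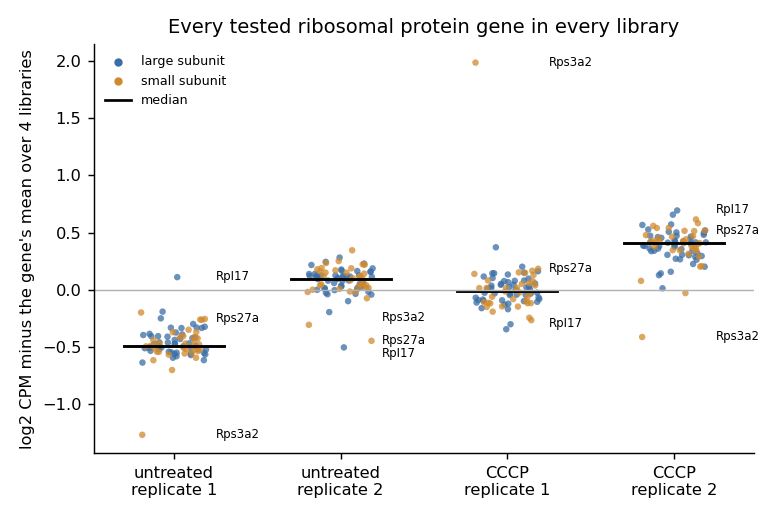
Each point is 1 of the 85 tested genes in 1 library, plotted as its log2 CPM minus the gene's own mean over the 4 libraries (vertical axis); black lines are medians, blue the large and orange the small subunit. From left to right the medians lie at -0.48, 0.10, -0.01 and 0.41, and Rps3a2, Rpl17 and Rps27a stand apart from the band.

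Relative to each gene's mean over the 4 libraries, the median log2 CPM of the ribosomal protein genes was -0.48 and 0.10 in untreated replicates 1 and 2 and -0.01 and 0.41 in CCCP replicates 1 and 2. Ribosomal protein messages are short, with a median exon length of 867 bases against 3467 for all tested genes. The shortest 10% of the other genes (1976 genes, median 702.5 bases) lay at -0.20, 0.04, 0.04 and 0.17 in the same 4 libraries, and the longest 10% (1976 genes) at 0.31, 0.03, -0.10 and -0.17. The 78 genes for mitochondrial ribosomal proteins, which serve the separate ribosome inside mitochondria, lay at -0.31, 0.02, 0.07 and 0.22. Short genes in general thus were lowest in untreated replicate 1 and highest in CCCP replicate 2, over a narrower range than the ribosomal protein genes, and the part of length in the result was not tested beyond the removal of its trend given below.

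No ribosomal protein gene passed the test between CCCP and untreated, although every one of the 85 had a fold change above 0. By the quasi-likelihood test of edgeR, adjusted over 19837 genes by Benjamini-Hochberg, 0 of 85 had an adjusted p below 0.05, and the background was 0.0% of all genes in either direction. The smallest adjusted p was 0.208, for Rps27a. At an unadjusted p below 0.05, 8 genes were higher (background 5.45%) and 0 were lower (background 9.16%): Rpl21, Rpl28, Rpl30, Rpl31, Rpl37a, Rps27a, Rps29 and Rps3a2. DESeq2 called 1 of the 85, Rps27a, against a background of 0.297% of all genes higher and 2.7% lower. Neither test used the replicate number, whose meaning the labels do not give. With that number as a block, part of the family was called, all higher (background 3.8% higher and 6.88% lower). Those calls are given below, where the dependence on processing is described.

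The median log2 fold change was 0.37 over the 85 genes, with quartiles of 0.29 and 0.44, and -0.01 over all tested genes, of which 49.2% had a fold change above 0. The large subunit (50 genes) and the small subunit (35 genes) each had a median of 0.37. It ran from 0.31 to 0.38 under other scalings of the libraries. It moved more when single libraries were left out: 0.13 without untreated replicate 1, 0.16 without CCCP replicate 2, 0.57 without CCCP replicate 1 and 0.72 without untreated replicate 2. With each library's trend on exon length removed, the median of the family was 0.24 and that of all tested genes was 0.04. Mitochondrial ribosomal protein genes had a median of 0.28, with 76 of 78 above 0.

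**Figure D3:**
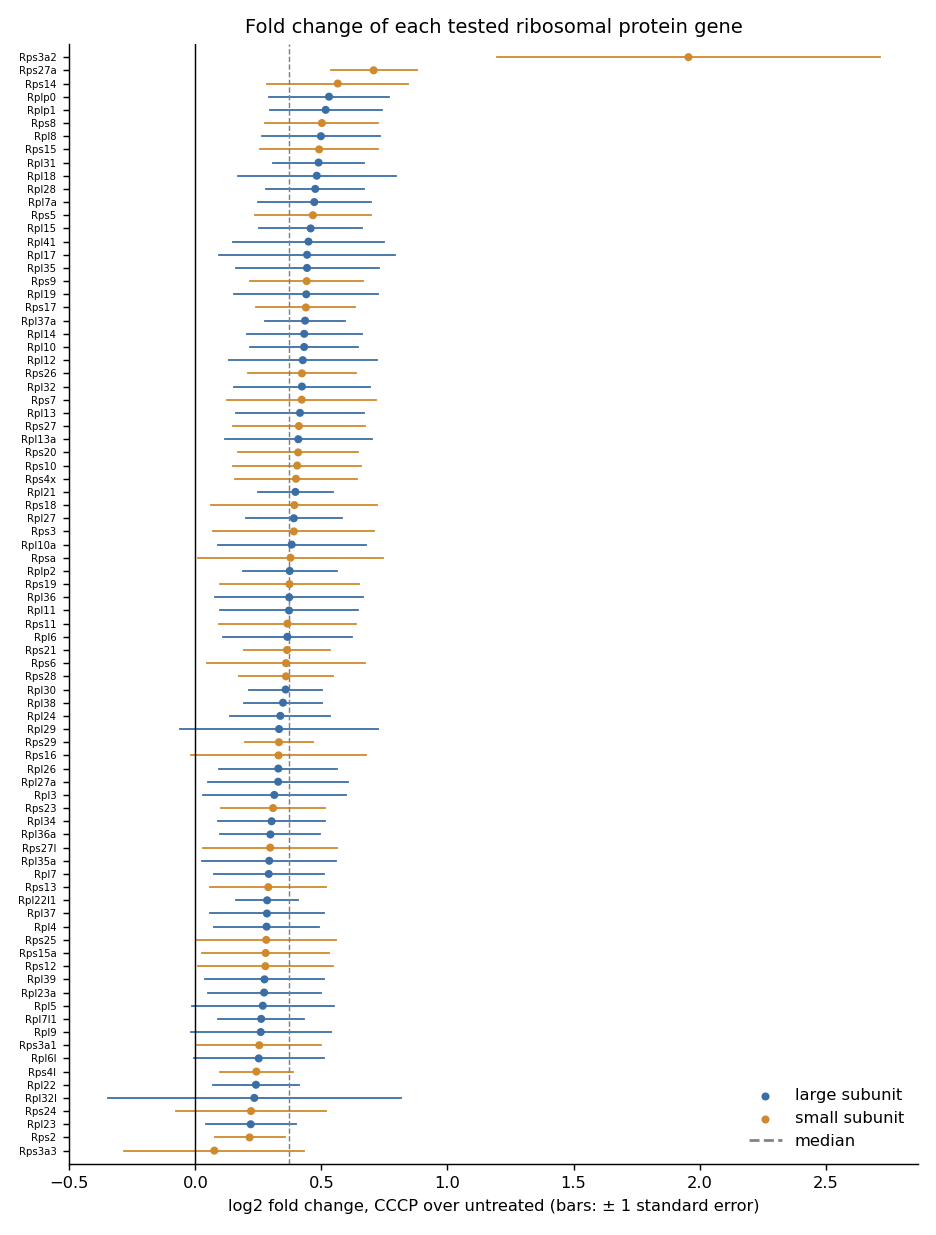
Log2 fold change, CCCP over untreated (horizontal axis), of 84 of the 85 tested genes with bars of 1 standard error, sorted, in blue for the large and orange for the small subunit; the dashed line is the median of 0.37 over all 85. All points lie above 0, from Rps3a3 (0.08) to Rps3a2 (1.96), and none passed an adjusted p of 0.05.

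The lower CCCP library exceeded the higher untreated library for 27 of the 85 genes (31.8%, background 24.0%), and the groups overlapped for 58. Compared within a replicate number, CCCP lay above untreated in both pairs for 81 genes (95.3%, background 35.2%), and no gene had CCCP below untreated in both (background 34.9%). The median log2 ratio was 0.44 between the replicates 1 and 0.32 between the replicates 2. Replicate 2 lay above replicate 1 in both groups for 77 genes (90.6%, background 33.2%). The median log2 ratios were 0.57 untreated and 0.39 with CCCP, and Rpl21 was the sole gene with replicate 1 above in both groups. Mitochondrial ribosomal protein genes had similar shares, with 91.0% higher in both pairs and 83.3% with replicate 2 above in both groups. For 59.0% of them both CCCP libraries lay above both untreated ones.

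**Figure D4:**
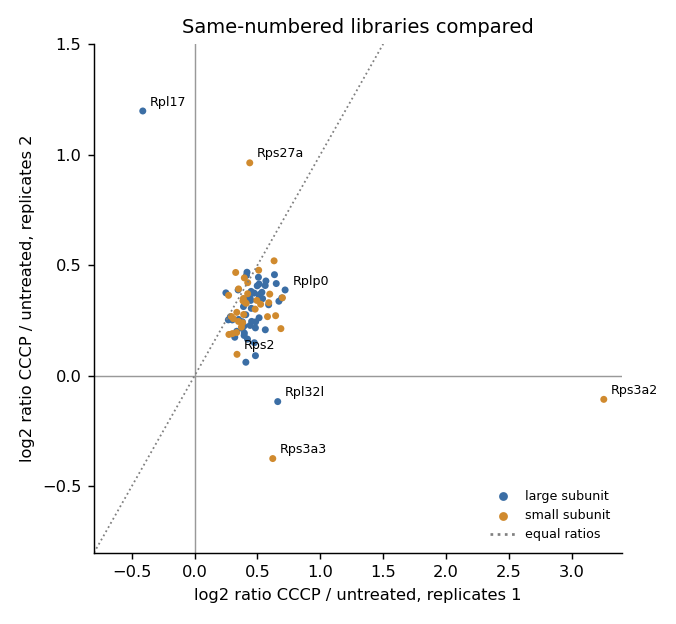
Log2 ratio of CCCP over untreated CPM between the replicates 1 (horizontal axis) and between the replicates 2 (vertical axis) for the 85 tested genes, blue for the large and orange for the small subunit; the dotted line marks equal ratios. Of the 85 points, 81 lie above 0 on both axes, and Rpl17, Rpl32l, Rps3a2 and Rps3a3 lie above 0 on one axis alone.

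The stalk proteins recruit the elongation factors to the ribosome. Rplp0, which anchors the stalk, had 1420 and 2132 CPM untreated and 2339 and 2790 CPM with CCCP. Rplp1, one of the acidic proteins that bind it, had 710 and 1028 CPM untreated and 1114 and 1373 CPM with CCCP. Rplp2, its partner, had 432 and 587 CPM untreated and 616 and 704 CPM with CCCP. The groups did not overlap for any of these 3, and the log2 fold changes were 0.53 ± 0.24 (SE), 0.52 ± 0.22 and 0.37 ± 0.19. Their adjusted p-values from edgeR were 0.363, 0.353 and 0.404.

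Per kilobase of exon, Rplp1 had the highest mean level of the family, 2257 CPM, followed by Rps14 (2211) and Rps26 (1822), while the median over the tested genes was 706 CPM per kilobase. Rps14, on the platform of the small subunit, had 827 and 1303 CPM untreated and 1282 and 1868 CPM with CCCP, so its groups overlapped. Rps26, which lines the mRNA exit channel, had 604 and 791 CPM untreated and 795 and 1075 CPM with CCCP. The lower CCCP library of Rps26 was within a few CPM of the higher untreated one.

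Rps27a, which encodes ubiquitin fused to a ribosomal protein of the small subunit, had the smallest p and, among genes with a mean of at least 10 CPM, the largest fold change. It had 558 and 488 CPM untreated and 756 and 952 CPM with CCCP, a log2 fold change of 0.71 ± 0.17 (SE). Unlike most of the family it was lower in untreated replicate 2 than in untreated replicate 1. DESeq2 gave it an adjusted p of 0.00651, and edgeR gave 3.1e-04 without the filter on low counts, where 13 of the 89 genes were called, all higher (background 0.673% higher and 2.76% lower). Its span overlaps Clhc1 on the opposite strand, and the counting did not use strand.

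Rpl37a and Rpl31, structural proteins of the large subunit, followed Rps27a in p. Rpl37a had 334 and 393 CPM untreated and 445 and 539 CPM with CCCP (log2 fold change 0.44 ± 0.16, adjusted p = 0.311 by edgeR). Rpl31 had 494 and 668 CPM untreated and 787 and 843 CPM with CCCP (0.49 ± 0.18, adjusted p = 0.315 by edgeR). Neither gene's groups overlapped.

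At the other end of the range, Rps2, which lies at the mRNA entry channel, had 556 and 630 CPM untreated and 703 and 674 CPM with CCCP (log2 fold change 0.21 ± 0.14). Rpl23, at the interface of the subunits, had 479 and 645 CPM untreated and 636 and 673 CPM with CCCP (0.22 ± 0.18). Rps24, one of the genes mutated in Diamond-Blackfan anaemia, had 627 and 1018 CPM untreated and 758 and 1159 CPM with CCCP (0.22 ± 0.30). The last of these depended on single libraries for its sign, with -0.08 without untreated replicate 1 and -0.11 without CCCP replicate 2.

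The gap between replicate numbers was widest for Rpsa, Rpl29 and Rps16. Rpsa, a small subunit protein also known as the laminin receptor, had 1077 CPM in untreated replicate 1 and 1898 in replicate 2, and 1373 and 2492 CPM in the CCCP replicates. Rpl29 had 155 and 285 CPM untreated and 184 and 369 CPM with CCCP. Rps16 had 466 and 786 CPM untreated and 562 and 1011 CPM with CCCP. Each of the 3 was higher in both replicates 2 than in both replicates 1, and their log2 fold changes with CCCP were 0.38 ± 0.37, 0.33 ± 0.39 and 0.33 ± 0.35. Rpl21 had 113.7 and 113.4 CPM untreated and 168 and 131 CPM with CCCP (0.40 ± 0.15).

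Several ribosomal proteins have a paralog that can take their place or is made in particular tissues. Rpl22, which binds RNA outside the ribosome too and is needed in lymphocyte development, had 437 and 558 CPM untreated and 546 and 629 CPM with CCCP. Its paralog Rpl22l1 had 118 and 137 CPM untreated and 155.0 and 154.9 CPM with CCCP. Per kilobase the mean levels of the pair were close, 217 CPM for Rpl22 and 254 for Rpl22l1. Their log2 fold changes were 0.24 ± 0.17 and 0.28 ± 0.12, a gap smaller than either standard error.

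The pairs that follow were unequal in level. Rps27 had 542 and 761 CPM untreated and 679 and 1052 CPM with CCCP, and its paralog Rps27l, known as a p53 target, had 47.1 and 74.95 CPM untreated and 61.4 and 88.5 CPM with CCCP. Rps4x, encoded on the X chromosome, had 1021 and 1568 CPM untreated and 1526 and 1887 CPM with CCCP, and Rps4l had 39.1 and 47.4 CPM untreated and 48.1 and 54.1 CPM with CCCP. Rpl7 had 851 and 1243 CPM untreated and 1182 and 1378 CPM with CCCP, and Rpl7l1, which acts in ribosome assembly, had 100.1 and 131 CPM untreated and 126 and 151 CPM with CCCP. In these 3 pairs the paralog's mean per kilobase was 24.7, 50.1 and 48.8 CPM, against 1319, 1098 and 1246 CPM for the main gene, and both genes of each pair had fold changes above 0.

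The paralogs of restricted tissues had few counts. Rpl3l, the striated muscle form of Rpl3, had 7, 8, 3 and 0 counts in untreated replicates 1 and 2 and CCCP replicates 1 and 2. Rpl10l, the testis form of Rpl10, had 4 counts in untreated replicate 1 and 0 in the other 3 libraries. Rpl39l, also known from testis, had 9, 4, 2 and 9 counts. A floor of 3 counts corresponds to between 0.0614 and 0.0803 CPM without TMM scaling, so the libraries without a count of Rpl3l or Rpl10l allow a level of uniquely mapped reads up to that. Rps12l1 had 5, 2, 0 and 4 counts, but 100% of its 50-base stretches occur in other transcripts, so its level cannot be read from reads that map to a single place. Their partners were abundant: Rpl3 had 900 and 1471 CPM untreated and 1222 and 1723 CPM with CCCP, Rpl10 had 631 and 894 against 918 and 1139 CPM, and Rpl39 had 211 and 302 against 257 and 363 CPM.

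Ribosomal protein genes have many processed copies in the genome, which bears on what could be counted, since reads that map to more than 1 place were dropped. Of the 89 genes, 86 shared at least one 50-base stretch with a transcript of another gene, with a median of 38.3% of stretches shared, and 32 shared at least 50%. The 17 tested genes that shared under 20% had a median log2 fold change of 0.30, the 37 between 20% and 50% had 0.39 and the 31 above had 0.36. The 41 tested genes whose span overlaps no other gene had a median of 0.38. The direction and the approximate size were thus alike in genes with few and with many shared stretches.

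Rps3a2 had the largest log2 fold change of the family, 1.96 ± 0.76 (SE), and it rested on 1 library. Its counts were 132 and 192 untreated and 1221 and 173 with CCCP, or 2.64 and 5.13 CPM against 25.2 and 4.77 CPM, so CCCP replicate 1 was high and CCCP replicate 2 lay below untreated replicate 2. Without CCCP replicate 1 the log2 fold change was 0.31. Its edgeR adjusted p was 0.327, and 4.0e-10 without the filter on low counts. The row is at mm10 chr14:88122952-88123833, and 90.2% of its 50-base stretches occur in other transcripts. Over the coding sequence of Rps3a1, the expressed gene of the family, the aligned transcript of Rps3a2 differs at 4 of 792 positions. The stretch of coding positions 609 to 668, counted from 1 at the start codon, is shown to make clear how little separates a read of one from a read of the other, with capitals at the bases that differ.
Rps3a1: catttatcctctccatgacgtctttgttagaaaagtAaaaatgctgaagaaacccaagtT
Rps3a2: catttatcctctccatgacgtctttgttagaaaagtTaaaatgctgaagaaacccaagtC

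Rps3a1 itself had 913 and 1350 CPM untreated and 1150 and 1546 CPM with CCCP and did not stand out in CCCP replicate 1. Some copies of other members were highest in CCCP replicate 1 as well, though most -ps rows with a mean of at least 1 CPM were highest in CCCP replicate 2. Rpsa-ps10, at mm10 chr3:150072590-150073617, had 106 and 47.4 CPM untreated and 474 and 70.5 CPM with CCCP. Rpl3-ps1, on chromosome X, had 59.0 and 50.6 CPM untreated and 170 and 57.2 CPM with CCCP. Rows named -ps made up 10.98% and 3.96% of the Rpsa family's counts untreated and 27.9% and 4.53% with CCCP. Over the coding sequence of Rpsa, the aligned transcript of Rpsa-ps10 differs at 6 of 885 positions. Of these, 2 are in positions 160 to 219, in capitals here.
Rpsa: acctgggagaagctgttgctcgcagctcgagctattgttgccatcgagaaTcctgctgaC
Rpsa-ps10: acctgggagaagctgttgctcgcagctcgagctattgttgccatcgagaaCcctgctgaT

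The paralogs Rps27 and Rps27l are shown for contrast: they differ at 60 of 252 coding positions, and at 19, in capitals, within positions 4 to 63.
Rps27: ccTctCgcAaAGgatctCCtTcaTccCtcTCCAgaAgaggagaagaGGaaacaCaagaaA
Rps27l: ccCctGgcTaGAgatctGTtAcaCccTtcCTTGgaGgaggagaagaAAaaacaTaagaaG

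**Figure D5:**
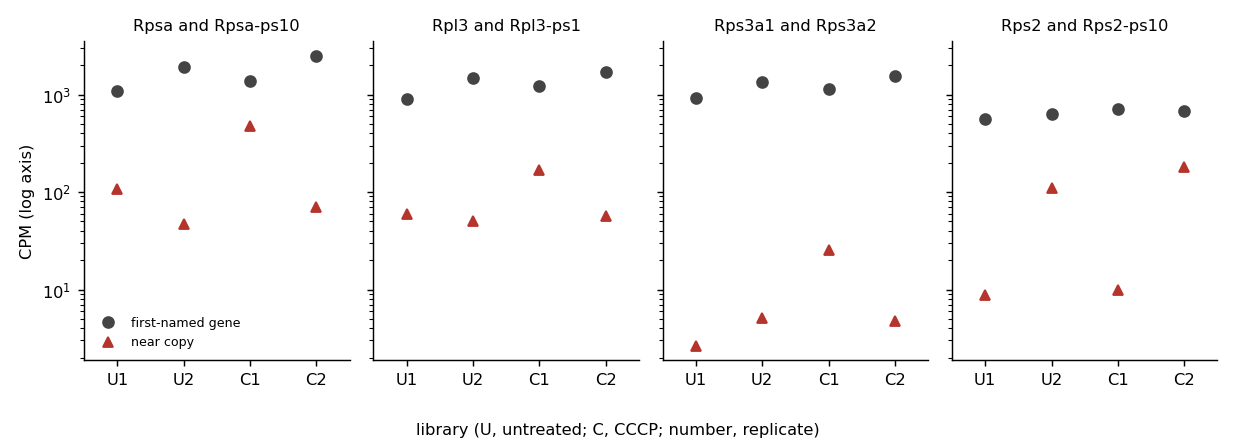
CPM (vertical log axis) of 4 genes (circles) and a near copy of each (triangles) in the 4 libraries, U for untreated and C for CCCP with the replicate number. Rpsa-ps10, Rpl3-ps1 and Rps3a2 are highest in CCCP replicate 1 (474, 170 and 25.2 CPM), while Rps2-ps10 is high in both replicates 2 (109 and 181 CPM) and low in both replicates 1 (8.75 and 9.87 CPM).

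Rps2-ps10 followed the replicate number in place of a single library. It had 8.75 and 109 CPM in untreated replicates 1 and 2 and 9.87 and 181 CPM in CCCP replicates 1 and 2. Over the coding sequence of Rps2, the aligned transcript of Rps2-ps10 differs at 5 of 879 positions. Rows named -ps took 3.56% and 17.3% of the Rps2 family's counts untreated and 4.46% and 24.3% with CCCP. Rpl17, a member with many processed copies, had 116 and 75.9 CPM untreated and 87.3 and 174 CPM with CCCP, and the -ps rows of its family took 49.8% and 79.5% of the counts untreated and 64.9% and 63.2% with CCCP. For these genes the split between a gene and its copies is uncertain. Adding each gene's -ps rows to it left the median log2 fold change at 0.37. Copies under other names were not part of this sum or of the family shares above. For Rpl21, for example, Gm10240 shared the most stretches.

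The lowest levels among tested genes were those of further copy-like rows. Rpl32l, inside the span of Map7, had a mean of 0.739 CPM per kilobase and 0.30 and 0.508 CPM untreated against 0.474 and 0.469 CPM with CCCP. Rps3a3, inside the span of Pde4d, had 2.48 and 4.36 CPM untreated and 3.81 and 3.36 CPM with CCCP. Both groups overlapped in both genes, and their log2 fold changes of 0.23 ± 0.58 and 0.08 ± 0.36 were below their standard errors.

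Promoter windows were examined because most of the family shared an order of libraries. RefSeq windows of GRCm38.p6, the same build as mm10, from 250 bases before to 50 after the start site, were found for 64 of the 89 genes. A run of at least 8 C or T letters on the gene's strand was looked for within 40 bases of the start. It was in 44 of the 64 (68.8%) and in 29.2% of 27025 genes. A TOP motif begins the message, whereas this run could lie anywhere in that window. Relative to the start it began at -40 in Rpl27 and at 31 in Rpl6. The run therefore does not separate TOP messages from others. The letters CGGAAG on either strand, known as a site for ETS factors such as GABP, were in 65.6% against 17.2% of all windows. GGGCGG was in 59.4% against 35.9%, TATAAA in 12.5% against 14.2%, and ATGGCGGC in 6.25% against 2.38%, each on either strand. CTTCCG, the reverse complement of CGGAAG, opens with letters that can lie within a run of C and T. The tested genes with a run (42) had a median log2 fold change of 0.36 and those without (19) had 0.37.

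The windows from 45 bases before to 25 bases from the start are given for 5 genes with a run and 2 without, among them stalk proteins, paralogs and Rps24, with the longest C and T run in capitals where one was found. Rplp2 is at chr7:141447606-141447675 (plus strand), Rps26 at chr10:128626482-128626551 (minus strand), Rps27 at chr3:90213624-90213693 (minus strand), Rps24 at chr14:24490633-24490702 (plus strand) and Rpl22l1 at chr3:28805463-28805532 (plus strand). Rplp0 at chr5:115559422-115559491 and Rpsa at chr9:120127721-120127790, both on the plus strand, held no run of that length.
Rplp2: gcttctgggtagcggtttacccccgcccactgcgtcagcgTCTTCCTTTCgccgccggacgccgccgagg
Rps26: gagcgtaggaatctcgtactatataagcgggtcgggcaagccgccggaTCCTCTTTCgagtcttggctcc
Rps27: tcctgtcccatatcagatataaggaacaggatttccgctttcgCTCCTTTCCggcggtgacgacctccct
Rps24: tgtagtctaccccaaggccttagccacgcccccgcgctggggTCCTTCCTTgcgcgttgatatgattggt
Rpl22l1: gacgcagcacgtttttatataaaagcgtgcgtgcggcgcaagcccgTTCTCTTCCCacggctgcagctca
Rplp0: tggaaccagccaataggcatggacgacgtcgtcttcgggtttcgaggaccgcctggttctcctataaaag
Rpsa: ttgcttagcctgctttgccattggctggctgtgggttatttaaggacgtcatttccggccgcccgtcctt

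In Rplp2, Rps27 and Rps24 the run spans the annotated start, and in Rps26 and Rpl22l1 it begins just after it. Rplp0 and Rpsa, without a run of that length near the annotated start, had log2 fold changes of 0.53 and 0.38. Rps24 and Rpl22l1, with one, had 0.22 and 0.28. These genes do not stand for the family, since Rplp0 and Rps24 were named as extremes of fold change. Over the tested genes with a window, the medians were 0.36 with a run and 0.37 without. In Rplp0 the letters TATAAA lie after the annotated start, and whether its message begins at that start was not tested. A match of letters is a description of the window and not of a bound factor.

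The subunits that the name rule misses resembled the family. The 4 genes of that list, among them Fau (encoding a ubiquitin-like protein fused to a small subunit protein), Rpl36al and Rack1 (the scaffold protein on the head of the small subunit), had a median log2 fold change of 0.44, with 4 of 4 above 0 and 4 of 4 higher in replicate 2 than in replicate 1 of both groups. Rack1 had 857 and 1394 CPM untreated and 1406 and 1915 CPM with CCCP (0.56 ± 0.28). Rpl36al had the smallest p of the 4, with 75.7 and 84.1 CPM untreated and 104.9 and 110.8 CPM with CCCP (0.43 ± 0.12, adjusted p = 0.236 by edgeR). None of the 4 passed the test.

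Translation factors and other TOP messages (16 genes) had a median of 0.33, with 14 above 0 and 15 higher in both replicates 2. Eif3f, a subunit of initiation factor eIF3, had the smallest p of the list, with 275 and 332 CPM untreated and 406 and 470 CPM with CCCP (0.53 ± 0.15, adjusted p = 0.254 by edgeR). Eef1a1 and Eef2, the elongation factors, and Eif3a were picked out after their values were seen. Eef1a1 had 8105 and 12092 CPM untreated and 11298 and 14304 CPM with CCCP, in the order of the ribosomal proteins. Eef2 had 3425 and 4205 against 5235 and 5564 CPM, with no overlap of the groups. Eif3a, another eIF3 subunit, was lower with CCCP, with 687 and 702 against 568 and 578 CPM (-0.28 ± 0.13).

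Genes that make ribosomes were nearer to the median of all genes. Assembly factors (52 genes) had a median log2 fold change of 0.14, with 34 above 0, and 43 of the 52 were higher in both replicates 2. Ddx10, an RNA helicase of small subunit assembly, had the smallest p, with 50.1 and 56.7 CPM untreated and 41.8 and 38.2 CPM with CCCP (-0.41 ± 0.13, adjusted p = 0.270 by edgeR). RNA polymerase I and its factors (14 genes) had a median of 0.19, with 10 above 0. Ubtf, the factor that opens ribosomal DNA for this polymerase, had 217 and 233 CPM untreated and 276 and 256 CPM with CCCP (0.24 ± 0.12, adjusted p = 0.403 by edgeR).

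The genes of mTORC1 and TOP control (20 genes) had a median of 0.12, with 14 above 0, and 5 were higher in both replicates 2. Akt1s1, which encodes the mTORC1 inhibitor PRAS40, had 71.7 and 75.8 CPM untreated and 99.5 and 105.1 CPM with CCCP (0.47 ± 0.11, adjusted p = 0.206 by edgeR). Ribosome rescue and quality control (12 genes) had a median of -0.12, with 5 above 0. Edf1, a sensor of collided ribosomes, had 54.3 and 59.9 CPM untreated and 79.7 and 80.9 CPM with CCCP (0.49 ± 0.12, adjusted p = 0.206 by edgeR). Targets of p53 (10 genes), which free ribosomal proteins can activate through Mdm2, had a median of 0.01, with 5 above 0. Mdm2 itself had 86.8 and 92.5 CPM untreated and 68.9 and 63.2 CPM with CCCP (-0.44 ± 0.12, adjusted p = 0.228 by edgeR). None of the 128 genes of these lists passed the test, at a smallest adjusted p of 0.206.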

How the data were processed

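The authors deposited raw counts of reads per gene for each library, made with featureCounts 2.0.3 on the exons of the RefSeq annotation of mm10, per the file headers. The library was directional per the labels, but the counting used no strand option. Read pairs were not counted as fragments, and reads with several places or genes were not counted, per the file headers. HISAT2, SAMtools, FastQC and Subread are named in the submitters' processing notes. Exon lengths came from the deposited files. For 5 genes with rows on alternate contigs (Rpl10a, Rps10, Rps18, Rps28 and Rps4l), levels per kilobase used the exons of the main chromosome.

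The 4 tables held the same 49997 rows, and no row lacked a gene name. The test was edgeR 4.0.16 (quasi-likelihood, two-sided, group as sole term) in R 4.3.3 with TMM scaling, filterByExpr (minimum count 10, total 15) and Benjamini-Hochberg adjustment over 19837 genes, at a threshold of 0.05. Standard errors were derived from the log2 fold change and its quasi-likelihood F statistic. It was tested on simulated counts. DESeq2 1.42.0, other scalings, filters, a length or GC trend and each library left out were alternatives. Shared stretches and coding differences came from GENCODE M21 transcripts, promoter windows from RefSeq, and deviations of libraries used log2 of CPM plus 0.05.

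Members and gene lists were chosen with earlier results of these data known. Named genes were the stalk proteins and Rpsa, the paralog pairs, the extremes of level per exon base, of fold change and of the gap between replicate numbers, and the smallest p-values, also in each gene list. A gene that this rule names is not reported here. Some listed symbols had no row (Gnb2l1, Polr1f, Polr1g, Polr1h, Znf598 and Gcn1l1).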

Additional observations from a re-analysis of the deposited data

How the results depend on the processing

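The median log2 fold change of the ribosomal protein genes lay above 0 under every alternative run, from 0.13 to 0.72 with 1 library left out, and no gene of the family was called in any of those 4 fits. The difference in share ran from 0.411 to 2.18 percentage points with 1 library left out. Calls of family members numbered 1 with DESeq2 (0.297% of all genes were called higher and 2.7% lower). Without the filter on low counts they numbered 13, and 7 genes of the other lists were also called (0.673% of all genes higher and 2.76% lower). The cause was not tested. Same-numbered libraries deviated together (r = 0.36 over 19837 genes), but the labels do not tie the numbers to anything. With the replicate number as a block, 38 family members were called, all higher (3.8% of all genes were called higher and 6.88% lower), and 26 genes of the other lists. Removal of the length trend as well as the block gave 16 family members, all higher (5.97% of all genes were called higher and 4.9% lower), and 23 list genes. The block with removal of the GC trend, chosen after seeing the data, gave 15 family members, all higher (1.91% of all genes higher and 2.77% lower), and 10 list genes.

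Rps3a3 turned to -0.052 with the length trend removed and to -0.027 with the replicate block added to that. Of the 85 family members, 8 had a fold change below 0 without untreated replicate 1, as had 10 of 86 without CCCP replicate 2. Among the 30 tested genes that the naming rule gives, the signs of 6 turned in 1 or more of the 4 fits that left out a library: Rpl29 ran from -0.25 to 0.86, Rpl32l from -0.10 to 0.68, Rps16 from -0.15 to 0.79, Rps24 from -0.11 to 0.64, Rps3a3 from -0.27 to 0.57 and Rpsa from -0.11 to 0.87. An arm of 1 library was assumed to vary like the other group. With 2 libraries per group, the number of libraries limits what can be called.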

Other observations

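The 321 rows named as processed copies (-ps) of ribosomal protein genes took 0.147% and 0.216% of counts in untreated replicates 1 and 2 and 0.245% and 0.261% in CCCP replicates 1 and 2. Of the 84 with a mean of at least 1 CPM, 5 had a library more than 2-fold above the next, and 3 of these had it in CCCP replicate 1: Rpsa-ps10, Rpl3-ps1 and Rpsa-ps9 (6.39 and 2.78 CPM untreated, 23.2 and 3.69 CPM with CCCP). The other 2, Rps2-ps13 and Rpl10-ps1, had it in CCCP replicate 2, with 12.6 and 2.07 CPM there. Rpl14-ps1 had the highest mean CPM of these rows, with 225 and 316 CPM untreated and 337 and 427 CPM with CCCP, in the order untreated 1, untreated 2, CCCP 1, CCCP 2.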
